A study of Mus musculus with 20 samples.

Results

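The 36 genes examined here belong to the transcriptional programme of ATF4, the factor that cells make under amino acid shortage and other stresses, and to the neighbouring unfolded protein response of the endoplasmic reticulum. They were given as a list of names, which was chosen with earlier results of these data known. A gene was kept where a probe set of the array carried its symbol and no other. This left 35 genes of the 18193 measured in the series. Of these, 25 are ATF4 or amino acid genes and 10 act in the endoplasmic reticulum. Pycr1, an enzyme of proline synthesis, had no such probe set and was not measured. Mouse brain progenitor cell lines gave total RNA for 20 arrays, in 4 groups of 5: control embryonic progenitors, embryonic progenitors transduced as a genetic modification, control postnatal progenitors, and transformed postnatal progenitors. The labels name neither the introduced sequence nor the transforming agent, and they give no strain, age, brain region, clone or culture condition. Whether the numbered samples of a group were separate cultures is not said. A p-value here measures only the spread among numbered samples, pooled over the 4 groups, and that spread may be technical.

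Values are the deposited signals, which have arbitrary units, and changes are differences of log2(signal + 16), a scale that understates the change of dim genes. The embryonic response is transduced against control and the postnatal response is transformed against control. Each change has the standard error of a limma fit over all 20 arrays, and its p was adjusted by the Benjamini-Hochberg method over all 18193 genes. A call needed 2-fold or more together with an adjusted p under 0.05, and a gene rose or fell in the sentences that follow only where it was called. Background was the 95th percentile of 27 bacterial control probe sets, between 107 and 221 on an array. An array had 61.3% to 73.2% of its probe sets above this level. Arrays of a group correlated with r between 0.947 and 0.970. The log2 ratio of 3' to 5' Gapdh control probes, a measure of RNA quality, averaged -0.38 in control and -0.30 in transduced embryonic arrays, and -0.46 in control and -0.55 in transformed postnatal arrays. For Actb control probes the means were 0.32 in control and 0.42 in transduced embryonic arrays, and 0.25 in control and 0.28 in transformed postnatal arrays, so that both ratios were higher in transduced cells while in transformed cells Gapdh was lower and Actb higher than in control. Their part in the results was not tested. All 6 measured markers of neural progenitors were above background on every array, which includes Olig2, Sox2 and Nes. On postnatal control arrays 4 and 5 the mean log2 level of 14 mitosis genes was 10.98 and 10.86, against 13.86, 13.79 and 13.84 on arrays 1 to 3. Values without those arrays are given where they end or start a call, or move the fold of a called gene by over 1.5 times. All groups share an estimate of the spread, so these arrays also enter the errors of the embryonic response. Without them the embryonic changes of Phgdh and Shmt2 were the same and under 2-fold. Their adjusted p in the limma fit went from 0.14 to 9.0e-05 and from 0.28 to 0.020.

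ATF4 is made when the initiation factor eIF2 is phosphorylated by one of its kinases, which sense amino acid shortage, misfolded protein in the endoplasmic reticulum, double-stranded RNA or haem shortage. It pairs with C/EBP proteins on composite elements (C/EBP-ATF response elements) and switches on genes that import and make amino acids, charge tRNA, and, when the stress lasts, regulators such as Ddit3 (CHOP) and Trib3. Misfolded protein also activates ATF6 and, through IRE1, the spliced form of Xbp1, and these factors raise chaperones such as Hspa5 (BiP) through endoplasmic reticulum stress elements (ERSE). Arrays report transcript level and show neither eIF2 phosphorylation nor Xbp1 splicing.

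In the postnatal response 20 of 25 ATF4 and amino acid genes rose and 0 fell, where 9.56% of all genes rose and 6.4% fell. In the embryonic response 9 of 25 rose and 1 fell, where 8.61% of all genes rose and 5.74% fell. Since the list was chosen with earlier results of these data known, these shares describe it and do not test it. The median change of the 25 genes was 2.26 in the postnatal and 0.72 in the embryonic response, beside medians over all genes of -0.0024 and 0.075. Of the 10 endoplasmic reticulum genes, 1 rose in the postnatal response and 0 in the embryonic response, shares near or below those of all genes, and 0 fell in either. Their median change was -0.18 and 0.0063.

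Without the 2-fold threshold, at an adjusted p under 0.05 alone, all 25 ATF4 and amino acid genes were higher in the postnatal response. Of all genes 20.3% were higher and 22% lower in it. The 25 include Gpt2 (0.30, adjusted p = 0.047), which stood at 0.12, adjusted p = 0.43, without postnatal control arrays 4 and 5. In the embryonic response 14 were higher and 2 lower, where 21.3% of all genes were higher and 18% lower. The arrays of control and transformed cells did not overlap for 24 of the 25 genes in the postnatal response, all 24 higher, where 32.2% of all genes did not overlap. In the embryonic response 19 of the 25 did not overlap, 15 of them higher, where 34.8% of all genes did not overlap. For the endoplasmic reticulum genes these counts were 6 of 10 and 5 of 10.

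**Figure D1:**
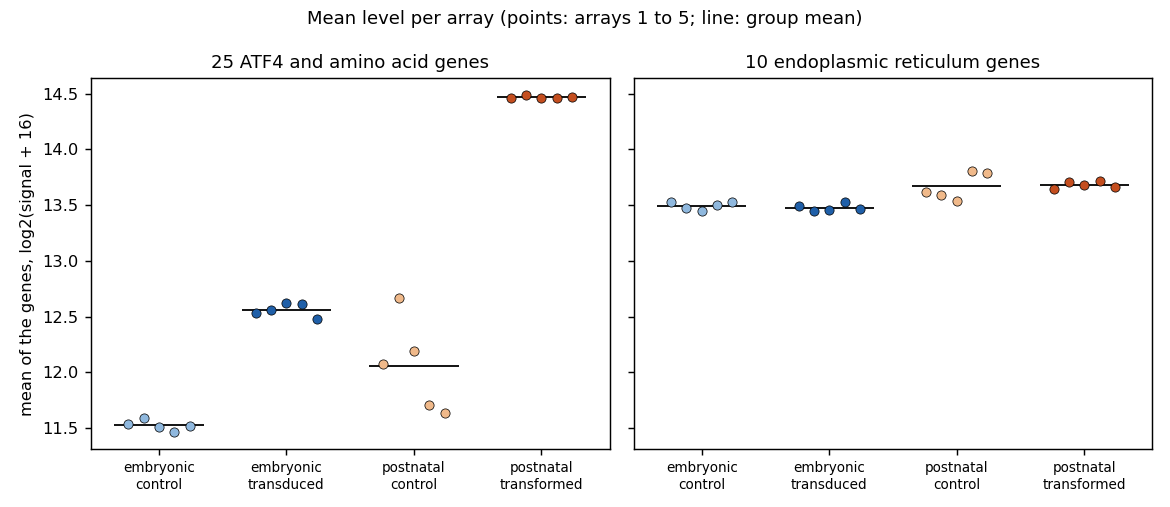
Mean log2(signal + 16) of the 25 ATF4 and amino acid genes (left) and the 10 endoplasmic reticulum genes (right) on each of the 20 arrays, by group, with a line at the group mean. The left panel runs from 11.46 to 11.59 in embryonic control to 14.46 to 14.49 in postnatal transformed arrays and the postnatal control arrays spread from 11.63 to 12.67, while the right panel stays between 13.45 and 13.81.

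The mean level of the 25 genes separated control from modified arrays at each age, as the plot of mean levels shows. It was 11.46 to 11.59 on embryonic control arrays and 12.48 to 12.62 on embryonic transduced arrays. The postnatal control arrays 1 to 5 stood at 12.07, 12.67, 12.19, 11.71 and 11.63, and the transformed arrays at 14.46 to 14.49. The spread within postnatal control was thus wider than within any other group, and its array 2 stood above the embryonic transduced arrays. The endoplasmic reticulum genes averaged 13.45 to 13.53, 13.45 to 13.53, 13.54 to 13.81 and 13.64 to 13.71 in the same order of groups.

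**Figure D2:**
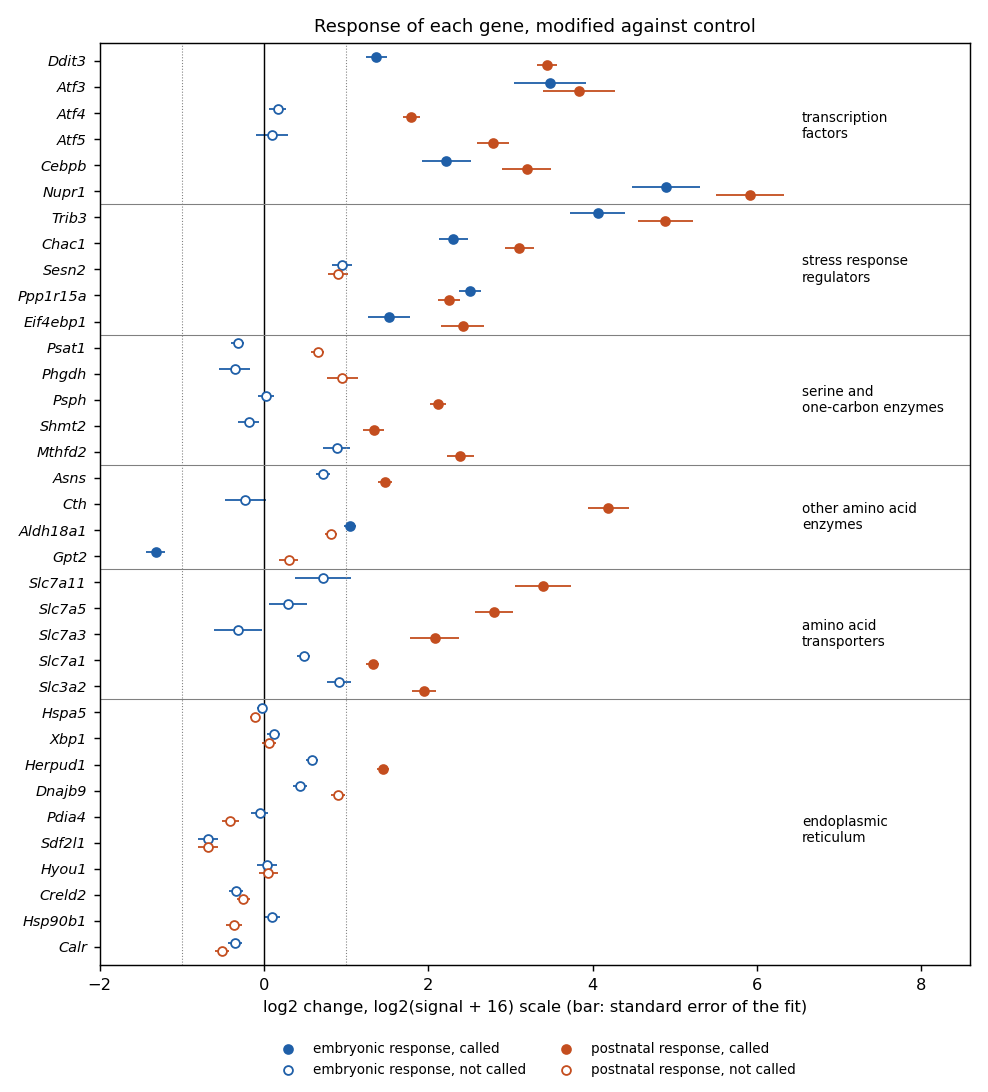
Log2 change of each of the 35 genes in the embryonic (blue) and postnatal (orange) response, in order of role, with the standard error of the fit as a bar, filled where the gene was called and open where it was not. Dotted lines mark 2-fold; most enzymes and transporters lie between these lines in blue and to the right of 0 in orange, the stress response regulators lie to the right in both colours, and the endoplasmic reticulum genes cluster around 0 except Herpud1 in orange at 1.45.

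ATF4 and the unfolded protein response act through different short elements, and a few promoters are printed here to show where such letters occur in genes of both classes. RefSeq promoters of assembly GRCm38.p6 were at hand for 31 of the 36 genes, and the 250 bases before each start were searched on both strands. The C/EBP-ATF element was taken as TGATGNAA. It occurred in 6 of 22 ATF4 and amino acid genes (Asns, Atf3, Chac1, Nupr1, Pycr1 and Slc7a11), in 1 of 9 endoplasmic reticulum genes (Herpud1), and in 3.45% of all 32851 promoters. The endoplasmic reticulum stress element was taken as CCAAT, 9 bases, then CCACG. It occurred in 4 of 9 endoplasmic reticulum genes (Calr, Creld2, Hsp90b1 and Hspa5), in 0 of the 22 others, and in 0.113% of all promoters. A second form, ATTGG, 1 base, then CCACG (ERSE-II), occurred in Herpud1 and in 0.0304% of all promoters. The matches of different motifs did not overlap in any of these promoters. The remaining genes had no match in this window, which says only that these letters are not there. The sequences run 5′ to 3′ towards the start, with matches in capitals. The C/EBP-ATF matches lie 193 to 186 bases before the start in Chac1, 110 to 103 in Nupr1, and 23 to 16 in Asns. Slc7a11 holds a pair, 66 to 59 and 47 to 40 bases before the start, on opposite strands. In Herpud1 the C/EBP-ATF match lies 112 to 105 and the ERSE-II match 52 to 42 bases before the start, and in Hspa5 the ERSE lies 65 to 47 bases before it.
Chac1, chr2:119350992-119351241, plus strand: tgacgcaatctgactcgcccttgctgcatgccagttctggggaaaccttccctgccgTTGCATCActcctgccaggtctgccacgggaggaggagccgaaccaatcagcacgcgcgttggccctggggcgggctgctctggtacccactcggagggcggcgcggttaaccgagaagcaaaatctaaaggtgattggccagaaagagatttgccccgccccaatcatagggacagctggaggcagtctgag
Nupr1, chr7:126625471-126625720, minus strand: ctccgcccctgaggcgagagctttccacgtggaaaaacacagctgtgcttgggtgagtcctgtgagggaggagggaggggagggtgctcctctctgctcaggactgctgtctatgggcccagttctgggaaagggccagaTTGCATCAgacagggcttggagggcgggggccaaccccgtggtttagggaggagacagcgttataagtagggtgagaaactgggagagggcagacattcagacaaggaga
Asns, chr6:7693210-7693459, minus strand: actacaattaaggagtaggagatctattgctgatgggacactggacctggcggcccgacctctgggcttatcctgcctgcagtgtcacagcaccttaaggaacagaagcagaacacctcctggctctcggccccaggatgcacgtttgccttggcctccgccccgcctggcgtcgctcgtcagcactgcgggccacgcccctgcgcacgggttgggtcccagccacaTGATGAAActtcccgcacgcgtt
Slc7a11, chr3:50443614-50443863, minus strand: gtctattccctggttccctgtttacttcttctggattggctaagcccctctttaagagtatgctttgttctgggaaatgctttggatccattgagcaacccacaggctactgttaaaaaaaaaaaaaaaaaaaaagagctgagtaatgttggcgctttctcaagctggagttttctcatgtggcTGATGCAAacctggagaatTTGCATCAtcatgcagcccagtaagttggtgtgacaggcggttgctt
Herpud1, chr8:94386179-94386428, plus strand: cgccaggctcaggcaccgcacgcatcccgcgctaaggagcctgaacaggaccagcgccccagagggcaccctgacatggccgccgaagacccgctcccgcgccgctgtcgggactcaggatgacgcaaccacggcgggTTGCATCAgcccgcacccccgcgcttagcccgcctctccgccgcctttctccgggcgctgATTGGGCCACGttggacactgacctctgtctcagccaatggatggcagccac
Hspa5, chr2:34771840-34772089, plus strand: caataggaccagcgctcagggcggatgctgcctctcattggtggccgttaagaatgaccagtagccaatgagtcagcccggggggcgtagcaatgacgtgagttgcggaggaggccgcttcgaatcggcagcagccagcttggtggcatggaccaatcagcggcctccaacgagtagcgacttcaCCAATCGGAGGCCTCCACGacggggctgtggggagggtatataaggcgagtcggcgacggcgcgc

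Among the 6 transcription factors, all 6 rose in the postnatal response and 4 rose in the embryonic response, where Atf4 and Atf5 were the exceptions. Ddit3, a factor of prolonged stress, read 1370.4, 1455, 1193, 1333 and 1202 on embryonic control arrays 1 to 5 and 3058, 3770.2, 3834, 4008 and 2557 on transduced arrays. It read 2183, 3195, 2437, 3289.9 and 3354 on postnatal control and 28563, 32229, 32751, 30168 and 32356 on transformed arrays. Neither pair of groups overlapped, and the transformed arrays stood well above every other array. Ddit3 rose by 1.37 ± 0.12, adjusted p = 8.7e-09 (log2, SE, n = 5 per group), in embryonic cells and by 3.44 ± 0.12, adjusted p = 3.8e-15, in postnatal cells, the latter a change of 10.9-fold. A second probe set gave another size, as described below.

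Nupr1, a small stress-induced chromatin protein whose promoter is printed above, read 14.1, 206, 145, 43.1 and 40.7 on embryonic control and 2704, 2509.5, 2675, 2984 and 1505 on transduced arrays. Only 1 of the 5 control arrays was above background, so its fitted change depends on the offset, and the mean signals of 89.9 ± 82.0 and 2476 ± 569 (SD, n = 5) describe it better. In postnatal cells it read 719.9, 1118, 451, 343 and 315 on control and 34261, 33276, 31816, 33414 and 30509.7 on transformed arrays. Every transformed array was higher than every other array of the series, and the rise was 5.92 ± 0.41, adjusted p = 9.9e-11. Atf3, a factor induced early in many stresses, read 371, 149, 151, 199 and 36.8 on embryonic control and 1562, 1935, 1927, 2024 and 1692 on transduced arrays. Control arrays above background numbered 3 of 5, at either age. In postnatal cells Atf3 averaged 240.3 ± 145 in control and 3021 ± 229.8 in transformed arrays. It was called higher in both responses, with adjusted p = 9.7e-07 in embryonic and 2.0e-07 in postnatal cells.

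Atf4 itself read 20858, 24796, 22958, 22395 and 24396 on embryonic control and 21753, 25071, 28673, 25795 and 28427 on transduced arrays, and these groups overlapped. On postnatal arrays it read 17985, 26376, 24149, 17082 and 18174 in control and 76082, 71997, 69973, 68123 and 67949 in transformed cells, with no overlap. Its change was 1.79 ± 0.10, adjusted p = 4.4e-12, in the postnatal response and 0.16 ± 0.10, adjusted p = 0.23, in the embryonic response, where it was not called. Atf5, a related factor that is also translated when eIF2 is phosphorylated, showed the same contrast. Its signals were 2921, 3751, 3322, 1435 and 1799 on postnatal control and 16393, 18263, 18182, 17366 and 16177 on transformed arrays, a rise of 2.79 ± 0.19, adjusted p = 8.0e-11. In embryonic cells its mean was 1639.5 ± 140.4 in control and 1774 ± 357 in transduced arrays, a change of 0.10 ± 0.19, adjusted p = 0.76. Cebpb, a C/EBP partner of ATF4, rose by 2.22 ± 0.30, adjusted p = 2.6e-06, in embryonic and by 3.20 ± 0.30, adjusted p = 1.1e-08, in postnatal cells, where the change was 2.53 without control arrays 4 and 5.

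The same 4 of 5 stress response regulators rose in each response. Trib3, a pseudokinase that restrains ATF4 signalling, read 320.5, 116, 143, 64.5 and 409 on embryonic control arrays, of which 3 were above background, and 3284, 3568, 3207, 2945 and 2766 on transduced arrays. On postnatal arrays it read 646, 1559, 729, 678 and 519.6 in control and 23142, 23754, 19364, 24908 and 24486 in transformed cells. No groups overlapped within either response. The postnatal rise was 4.89 ± 0.33, adjusted p = 6.8e-11, and the embryonic means were 211 ± 147 and 3154 ± 310.3 (adjusted p = 1.5e-09). Chac1, which breaks down glutathione and whose promoter is printed above, read 713, 648, 913, 572 and 995 on embryonic control and 3559, 3923, 3835, 3763 and 3819.9 on transduced arrays. It read 2227, 4399.6, 2925, 1964 and 1854 on postnatal control and 22228, 22180.3, 22176, 21291 and 21884 on transformed arrays. Its rises were 2.30 ± 0.18, adjusted p = 5.0e-10, and 3.11 ± 0.18, adjusted p = 3.8e-12, respectively, with no overlap in either.

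Ppp1r15a (GADD34), the stress-induced subunit that leads a phosphatase back to eIF2, read 1109.5, 1966, 1575, 1670.4 and 1383 on embryonic control and 7078, 8196, 9261, 8801 and 10543 on transduced arrays. It read 1400.2, 1895, 2075, 1809 and 2022 on postnatal control and 8481, 9519, 9024, 7967 and 8923 on transformed arrays. The levels of the modified groups overlapped each other, unlike those of Trib3 and Chac1, and the rises were 2.51 ± 0.13, adjusted p = 1.1e-12, and 2.26 ± 0.13, adjusted p = 7.3e-12. Eif4ebp1, an inhibitor of cap-dependent translation, rose by 1.52 ± 0.26, adjusted p = 5.2e-05, in embryonic and 2.42 ± 0.26, adjusted p = 8.4e-08, in postnatal cells, the latter 1.82 without control arrays 4 and 5. Sesn2, which holds back mTORC1, stayed under 2-fold at 0.95 ± 0.12, adjusted p = 1.3e-06, and 0.90 ± 0.12, adjusted p = 2.3e-06. It crossed 2-fold without embryonic control array 2 or embryonic transduced array 2 (1.01 each) and without postnatal control array 2 (1.03).

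**Figure D3:**
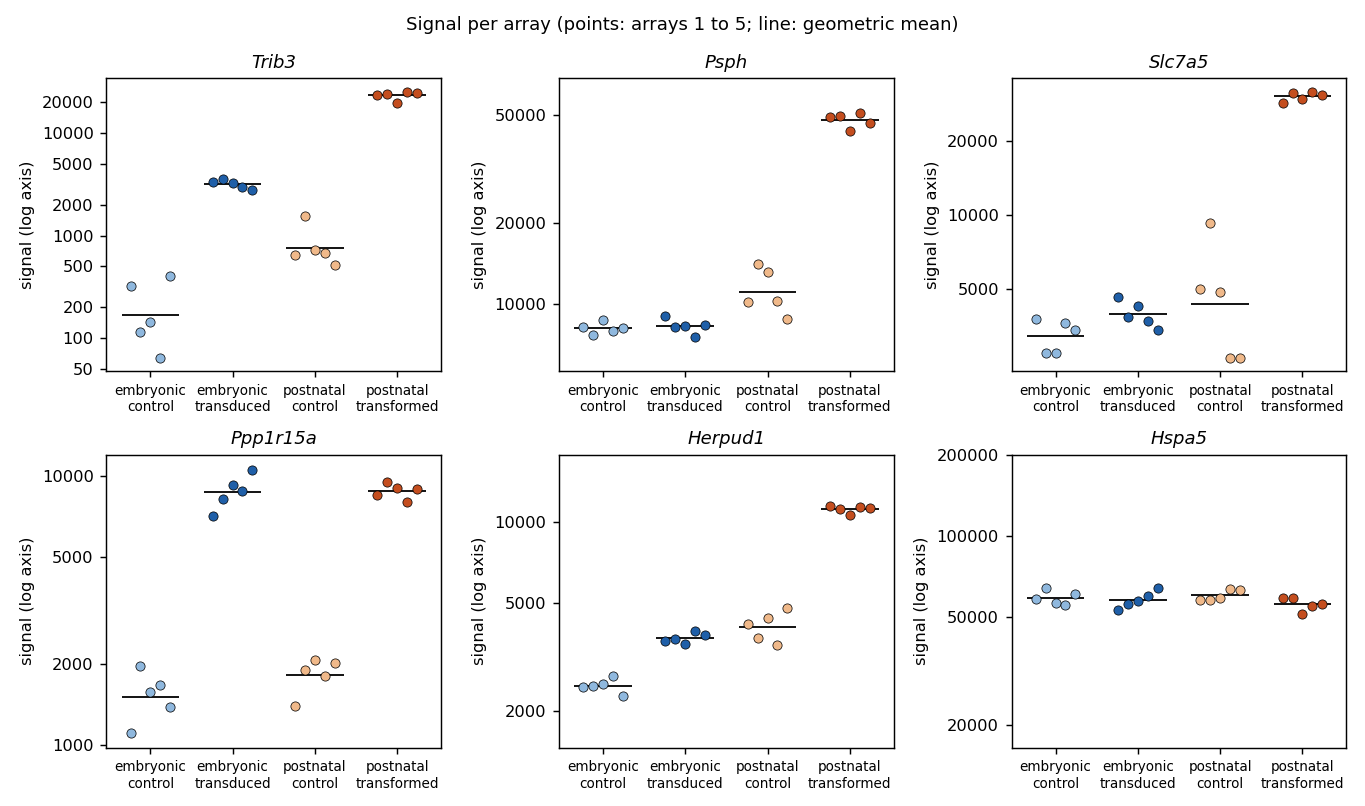
Signal of Trib3, Psph, Slc7a5, Ppp1r15a, Herpud1 and Hspa5 on each of the 20 arrays, by group, on a log axis, with a line at the geometric mean. Psph and Slc7a5 were high in the postnatal transformed group alone. Trib3 and Ppp1r15a were above control in both modified groups, which overlapped for Ppp1r15a, while Trib3 was higher in the transformed group. Herpud1 was highest in the transformed group and Hspa5 was nearly level.

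Enzymes of serine and one-carbon synthesis rose in 3 of 5 cases after transformation of postnatal cells and in 0 of 5 after transduction of embryonic cells. Psph, which makes the last step to serine, read 8188, 7643, 8704, 7915 and 8121 on embryonic control and 8996, 8169.6, 8232, 7520.3 and 8354 on transduced arrays, which overlapped. It read 10162, 13981, 13051, 10215 and 8762 on postnatal control and 49159.6, 49793, 43860.5, 51118 and 47022 on transformed arrays, and the transformed arrays stood alone. The changes were 0.024 ± 0.094, adjusted p = 0.88, and 2.12 ± 0.094, adjusted p = 8.1e-14. Mthfd2, a mitochondrial folate enzyme, read 4793, 4737, 3952, 3944 and 4947 on embryonic control and 7757, 7996, 8816, 8351 and 8288 on transduced arrays. It read 4509, 7633, 6008, 3043 and 3517 on postnatal control and 26341, 24058, 24911, 23325 and 24111 on transformed arrays. It was not called in the embryonic response (0.88 ± 0.16, adjusted p = 1.3e-04) and rose in the postnatal response (2.39 ± 0.16, adjusted p = 7.8e-11).

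Shmt2, which splits serine to feed the folate cycle in mitochondria, read 14648, 16001, 13835, 15417 and 15132 on embryonic control and 12053, 13303, 13048, 14054 and 13449.5 on transduced arrays. It read 14877, 19624, 15214, 10021 and 9846 on postnatal control and 32964, 34867, 35044, 33680.4 and 33042 on transformed arrays, without overlap, a rise of 1.33 ± 0.13, adjusted p = 1.5e-08. The embryonic change was -0.19 ± 0.13, adjusted p = 0.28. Phgdh and Psat1, the enzymes of the first 2 steps to serine, were under 2-fold in both responses. Phgdh stood at -0.36 ± 0.18, adjusted p = 0.14, in embryonic and 0.95 ± 0.18, adjusted p = 1.8e-04, in postnatal cells, and without postnatal control arrays 4 and 5 the latter was 0.51. It passed 2-fold without postnatal control array 1 (1.10), 2 (1.09) or 3 (1.01) and after quantile normalization (1.03). Further probe sets that carry Phgdh together with other symbols were not used, so signal of related copies cannot be separated from it. Psat1 stood at -0.32 ± 0.081, adjusted p = 0.0028, and 0.65 ± 0.081, adjusted p = 6.6e-07.

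The other amino acid enzymes did not move as 1 group. Asns, which makes asparagine and whose promoter is printed above, read 14253, 14297, 13206, 13576 and 14178 on embryonic control and 22666, 23559, 23497, 23672 and 21044 on transduced arrays. It read 21991, 28979, 27686, 19217 and 19427 on postnatal control and 64900.3, 63892, 67049, 62813 and 62022 on transformed arrays. The groups did not overlap within either response, the postnatal rise was 1.47 ± 0.089, adjusted p = 1.1e-11, and the embryonic change of 0.72 ± 0.089, adjusted p = 8.0e-07, was under 2-fold. Cth, which makes cysteine from cystathionine, had the widest postnatal change of the enzymes. It read 527, 1548, 952, 384 and 369.9 on postnatal control and 12358, 13143, 11955, 11279 and 11808 on transformed arrays, a rise of 4.19 ± 0.25, adjusted p = 1.0e-11. In embryonic cells it read 2689, 2586, 2607, 2901 and 2838 on control and 2553, 2251, 2295, 2429.9 and 2119 on transduced arrays, groups that did not overlap, with a difference of -0.23 ± 0.25, adjusted p = 0.55, that was not called.

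Aldh18a1, the first enzyme of proline synthesis, read 11669.8, 10717, 10791, 11398 and 10660.1 on embryonic control and 23943, 22349, 23189, 22909 and 21503 on transduced arrays, and rose by 1.04 ± 0.075, adjusted p = 2.1e-10. It read 16253, 21992, 17372, 14602 and 15677 on postnatal control and 30298, 28874, 30086, 30081 and 30413 on transformed arrays, a change of 0.82 ± 0.075, adjusted p = 8.9e-09, which is under 2-fold. Its embryonic call lies at the threshold, and centring each array on its 75th percentile took it to 0.95. Gpt2, a mitochondrial alanine aminotransferase, was the gene of the list that fell. It read 23743, 18024, 26018, 22359.6 and 21004 on embryonic control and 10039, 8706, 8183, 9400.0 and 7969.5 on transduced arrays, and dropped by 1.32 ± 0.12, adjusted p = 7.1e-09. In postnatal cells it read 22794, 20516, 25131, 18055 and 15227 on control and 21116, 24404, 23047, 28428 and 27076 on transformed arrays, a change of 0.30 ± 0.12, adjusted p = 0.047, that was not called.

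All 5 amino acid transporters rose in the postnatal response and 0 of 5 were called in the embryonic response. Slc7a5, the light chain of the large neutral amino acid exchanger LAT1, read 5002, 9257, 4874, 2615 and 2614 on postnatal control and 28517, 31529.9, 29557, 31775 and 30831 on transformed arrays. On embryonic arrays it read 3758, 2733, 2732, 3635 and 3403 in control and 4655, 3835, 4243, 3703 and 3399 in transduced cells, which overlapped. The changes were 2.80 ± 0.23, adjusted p = 1.3e-09, in postnatal and 0.29 ± 0.23, adjusted p = 0.36, in embryonic cells. Slc3a2, the shared heavy chain of these exchangers, read 11615, 11518, 9866, 10458 and 12084 on embryonic control and 21226, 21266, 21966, 22393 and 17569.6 on transduced arrays. It read 18585, 22660.2, 17868, 10771 and 11147 on postnatal control and 59439, 58671, 65320.1, 58291 and 58060.1 on transformed arrays. It was under 2-fold in the embryonic response (0.91 ± 0.15, adjusted p = 2.8e-05) and rose in the postnatal response (1.95 ± 0.15, adjusted p = 3.8e-10).

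Slc7a1, a carrier of cationic amino acids, read 14172, 21536, 17749, 17569 and 15599 on postnatal control and 44367, 43166, 41989, 40958 and 44038 on transformed arrays. On embryonic arrays it read 11883, 13191, 10576, 12155 and 11493 in control and 16467, 15183, 16012, 17233 and 17838 in transduced cells. Its postnatal rise was 1.32 ± 0.083, adjusted p = 2.2e-11, and its embryonic change 0.48 ± 0.083, adjusted p = 6.2e-05. Slc7a11, the light chain of the cystine and glutamate exchanger, has the promoter with a pair of C/EBP-ATF matches printed above. It read 217, 279.8, 206, 211 and 249 on embryonic control and 390.4, 378, 495, 307 and 401 on transduced arrays. It read 806, 503, 141, 258 and 127 on postnatal control, of which 4 of 5 arrays were above background, and 3306, 2967, 3279.5, 3069 and 3366 on transformed arrays. The postnatal rise was 3.40 ± 0.34, adjusted p = 3.2e-08, and the embryonic change was 0.72 ± 0.34, adjusted p = 0.11, with no overlap in either. Slc7a3, another cationic carrier, rose by 2.08 ± 0.29, adjusted p = 4.2e-06, in postnatal cells and stood at -0.32 ± 0.29, adjusted p = 0.45, in embryonic cells. Without postnatal control arrays 4 and 5 its postnatal change was 1.46.

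Of the endoplasmic reticulum genes, only Herpud1 was called in a response. Herpud1, a membrane protein of the degradation machinery, has a promoter that holds both a C/EBP-ATF match and an ERSE-II match, as printed above. It read 2444, 2476, 2502, 2696 and 2258 on embryonic control and 3619.7, 3699, 3548, 3936 and 3821 on transduced arrays. It read 4176, 3719, 4409, 3501 and 4797 on postnatal control and 11487, 11179, 10620.0, 11440.4 and 11296 on transformed arrays. The groups did not overlap within either response, and the changes were 0.59 ± 0.075, adjusted p = 1.3e-06, below 2-fold, and 1.45 ± 0.075, adjusted p = 9.7e-13. Hspa5 (BiP), the main luminal chaperone and the carrier of the ERSE printed above, was outside the rule for values per array and is given because it defines the class. It averaged 59300.3 ± 3548, 58359 ± 4116, 60494 ± 3001 and 56237 ± 3322 (SD, n = 5) in embryonic control, embryonic transduced, postnatal control and postnatal transformed arrays. Its changes were -0.024 ± 0.059, adjusted p = 0.81, and -0.11 ± 0.059, adjusted p = 0.17.

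The other 8 genes of this class, among them chaperones, a disulfide isomerase and the factor Xbp1, lay within 2-fold in both responses. Dnajb9, a co-chaperone of BiP, stood at 0.44 ± 0.083, adjusted p = 1.7e-04, in embryonic and 0.90 ± 0.083, adjusted p = 8.8e-09, in postnatal cells. Total Xbp1 transcript stood at 0.12 ± 0.082, adjusted p = 0.31, and 0.061 ± 0.082, adjusted p = 0.62. Sdf2l1, a partner of BiP, had the lowest values, -0.68 ± 0.12, adjusted p = 9.7e-05, and -0.69 ± 0.12, adjusted p = 7.6e-05. At an adjusted p under 0.05 with no fold threshold, the embryonic response had 2 of the 10 genes higher and 3 lower. Of all genes 21.3% were higher and 18% lower in it. The postnatal response had 2 higher and 5 lower, where 20.3% of all genes were higher and 22% lower. Of the 5, Creld2 (-0.25, adjusted p = 0.020) stood at -0.083, adjusted p = 0.34, without postnatal control arrays 4 and 5. At an unadjusted p under 0.05 the same limma fit counted 5 of the 10 in the embryonic response, where 45.1% of all genes passed, and 7 in the postnatal response, where 47.6% passed.

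Several genes have more than 1 probe set, and a probe set reads only its own stretch of transcript. Among 23 genes with several single-symbol probe sets, the probe sets of 5 disagreed in the embryonic or the postnatal response, either by more than 1 on the log2 scale or because only some were called. In none were probe sets called in opposite directions. The fit behind these values ran over all 45037 probe sets. Ddit3 stands first among the 5. Its brighter probe set gave the values above. Its dimmer probe set read 159.5, 214, 44.9, 135 and 208 on embryonic control arrays, of which 2 were above background, and 492, 468, 653, 523 and 672 on transduced arrays. It read 535, 736, 638, 274 and 304 on postnatal control and 678, 1147, 1250.2, 1277 and 912 on transformed arrays, and array 2 of the control lay above array 1 of the transformed cells. Both probe sets were called higher in both responses, with 1.90 ± 0.33, adjusted p = 7.9e-05, and 1.12 ± 0.33, adjusted p = 0.01, for the dimmer one. The order of the estimated responses turned with the probe set, but on the dimmer one their difference was not called. The postnatal response minus the embryonic one was 2.08 ± 0.18, adjusted p = 2.7e-09, on the brighter and -0.78 ± 0.47, adjusted p = 0.23, on the dimmer probe set. With the mean of both probe sets as the value of the gene, the postnatal change was 2.28 and the difference of responses was 0.65, which was not called.

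**Figure D4:**
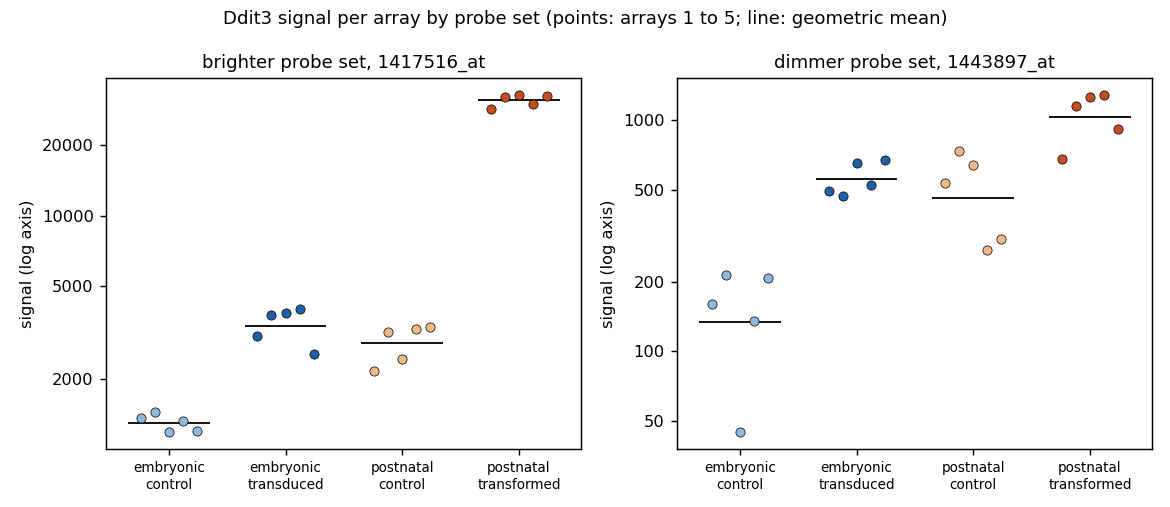
Signal of the brighter (left) and dimmer (right) probe set of Ddit3 on each of the 20 arrays, by group, on log axes with different ranges and a line at the geometric mean. On the left the postnatal transformed arrays stand far above the other groups, from 28563 to 32751, while on the right the postnatal control and transformed arrays overlap.

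The other disagreements were smaller or rested on dim probe sets. For Atf4, 2 probe sets gave 1.79 ± 0.10 and 1.81 ± 0.16 in the postnatal response, and the third was below background on every array. For Slc7a11, a second probe set was below background on all 5 embryonic control arrays, with a mean of 53.4, and above it on 4 of 5 transduced arrays, with a mean of 327. It was called in the embryonic response, where the brighter one was not, and both were called in the postnatal response. With the mean of the pair the embryonic change was 1.60 and was called. For Shmt2, 2 of 4 probe sets were called in the postnatal response, with changes between 0.39 and 1.33, and the mean of the 4 was 0.93. For Aldh18a1, 4 of 5 were called in the embryonic response, with changes between 0.76 and 1.32.

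The difference of the responses was itself tested as an interaction. Transduction and transformation may themselves differ, which this comparison cannot separate from age, and it shares its arrays with both responses. The sign of the difference counts: a gene was larger here where its postnatal change was more positive than its embryonic one. Of the 25 ATF4 and amino acid genes, 13 were larger in this sense and 0 smaller, where 9.36% of all genes were larger and 9.75% smaller. The 13 include Gpt2, which fell in the embryonic response (-1.32) and was not called in the postnatal one (0.30). They also include Phgdh, which was called in neither response. Of the 10 endoplasmic reticulum genes 0 were called by limma, while 4 had an unadjusted p under 0.05, beside 44.9% of all genes. At an adjusted p under 0.05 with no fold threshold, 17 of the 25 genes were larger and 0 smaller, as were 2 and 1 of the 10. Of all genes 18.1% were then larger and 20.8% smaller. The 13 comprised 4 of 5 serine and one-carbon enzymes, 4 of 5 transporters, 3 of 6 transcription factors and 2 of 4 other enzymes, but 0 of 5 stress response regulators. Cth had the widest difference (4.42 ± 0.36, adjusted p = 1.7e-09), followed by Atf5 (2.69 ± 0.27, adjusted p = 4.6e-08), Slc7a11 (2.68 ± 0.48, adjusted p = 1.0e-04) and Slc7a5 (2.51 ± 0.32, adjusted p = 1.6e-06). Psph differed by 2.10 ± 0.13, adjusted p = 4.3e-11, and Atf4 by 1.63 ± 0.14, adjusted p = 7.5e-09. Among the regulators Ppp1r15a differed by -0.26 ± 0.19, adjusted p = 0.32, and Trib3 by 0.82 ± 0.47, adjusted p = 0.19, values that missed the threshold and do not show equal responses. The count of 0 regulators depended on settings. Trib3 was called at 1.08 with an offset of 64 and at 1.13 without embryonic control array 4. It was also called at 1.55 with the mean of its probe sets. Its dimmer probe set changed by 3.08 in the embryonic and 5.37 in the postnatal response. Eif4ebp1 was called at 1.01 after centring on the 75th percentile, at 1.19 without postnatal control array 2 and at 1.01 without array 3. Chac1 reached 2-fold without postnatal control array 2. Slc3a2 (1.04) and Phgdh (1.31) were not called without postnatal control arrays 4 and 5, where they stood at 0.70 and 0.86. Ddit3 and Shmt2 were not called with the mean of their probe sets (0.65 and 0.97). Slc7a3 (2.40) stood at 1.78 without postnatal control arrays 4 and 5. Cebpb, Psat1 and Nupr1 were not among the 13. Cebpb (1.09) and Psat1 (1.08) were called after centring on the 75th percentile, and Nupr1 (1.61) with an offset of 64. Cebpb was also called without postnatal control array 1 (1.16), 2 (1.18) or 3 (1.11). So were Psat1 without array 2 (1.02) or 3 (1.04), and Nupr1 without embryonic control array 1 (1.38).

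Age was compared in the control and in the modified cells, and both comparisons also hold any difference in origin or culture. Among control cells 6 of the 25 ATF4 and amino acid genes were higher in postnatal cells and 1 was lower, where 4.86% of all genes were higher and 5.72% lower. The 6 were Nupr1, Trib3, Sesn2, Chac1, Slc7a3 and Ddit3. Chac1 differed by 1.73 ± 0.18, adjusted p = 1.1e-07, and Sesn2 by 1.73 ± 0.12, adjusted p = 5.3e-10. Ddit3, at 1.11 ± 0.12, adjusted p = 4.7e-07, was just short of 2-fold (0.97) without postnatal control arrays 4 and 5. Without them Atf5 (1.01) and Cebpb (1.11) were called higher as well, and Slc7a3 went from 1.68 to 2.29. Cth was lower in postnatal control cells, with a mean of 756 ± 501 against 2724 ± 139.9. None of the 10 endoplasmic reticulum genes was called by limma, while 8 had an unadjusted p under 0.05, beside 40.3% of all genes. At an adjusted p under 0.05 with no fold threshold, 12 of the 25 genes were higher and 1 lower, and 6 of the 10 were higher and 2 lower, where 16.4% of all genes were higher and 15.6% lower.

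Between the modified groups 20 of the 25 genes were higher in postnatal transformed than in embryonic transduced cells and 0 were lower, where 11.7% of all genes were higher and 13.7% lower. Slc7a3 differed by 4.07 ± 0.29, adjusted p = 7.7e-11, Atf5 by 3.29 ± 0.19, adjusted p = 2.3e-12, and Ddit3 by 3.19 ± 0.12, adjusted p = 3.5e-15. The 5 not called were Atf3, Ppp1r15a, Eif4ebp1, Phgdh and Aldh18a1, and Ppp1r15a was at 0.011 ± 0.13, adjusted p = 0.95. Psat1, at 1.001, lay at the threshold, and leaving out any of 4 arrays, embryonic transduced 5 or postnatal transformed 1, 2 or 4, took it below. With the mean of all probe sets Ddit3 was at 2.03, while Atf4 (0.91), Shmt2 (0.93) and Psat1 (0.79) were not called. For Atf4 that mean takes in a probe set that was below background on every array. Of the endoplasmic reticulum genes Herpud1 alone was called, at 1.59 ± 0.075, adjusted p = 7.7e-14. With no fold threshold 23 of the 25 genes were higher and 0 lower, and 5 of the 10 were higher and 3 lower, where 23.9% of all genes were higher and 28.2% lower.

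Genes next to this list in the same pathways were taken from lists of known roles. These lists too were chosen with earlier results of these data known. Of 14 tRNA synthetases and related factors counted as ATF4 targets, 7 rose in the postnatal and 0 in the embryonic response, beside 1 and 0 of 7 other synthetases. For this and the lists that follow, 9.56% of all genes rose and 6.4% fell in the postnatal response. In the embryonic response 8.61% of all genes rose and 5.74% fell. Xpot, which exports tRNA from the nucleus, rose by 1.21 ± 0.058, adjusted p = 3.3e-13, Tars by 1.25 ± 0.081, adjusted p = 3.1e-11, and Eprs by 1.09 ± 0.077, adjusted p = 1.3e-10. In the embryonic response the smallest p belonged to Sars at 0.69 ± 0.076, adjusted p = 1.5e-07, which is under 2-fold. Among 18 other ATF4 targets 12 rose in the postnatal response and 0 fell, while 6 rose and 2 fell in the embryonic response. Aldh1l2, a mitochondrial folate enzyme, rose by 2.40 ± 0.073, adjusted p = 1.9e-16, in postnatal cells. The neutral amino acid carrier Slc1a4 rose by 2.03 ± 0.10, adjusted p = 2.4e-13, and the glycine carrier Slc6a9 by 1.99 ± 0.089, adjusted p = 1.0e-13. In embryonic cells Vldlr, a lipoprotein receptor, rose by 2.63 ± 0.076, adjusted p = 6.7e-17, whereas Cbs, which makes cystathionine, fell (-2.72 ± 0.20, adjusted p = 1.9e-10), as did Bcat1, which breaks down branched-chain amino acids (-1.91 ± 0.10, adjusted p = 7.9e-13).

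Of 10 eIF2 kinase and eIF2B genes, 2 rose in the embryonic and 1 in the postnatal response. Eif2ak2 (PKR), the kinase that senses double-stranded RNA and is induced by interferon, rose in both, by 2.74 ± 0.22, adjusted p = 9.5e-10, and 2.13 ± 0.22, adjusted p = 4.0e-08. Eif2ak4 (GCN2), the kinase that senses uncharged tRNA, is outside the naming rule and is named because it is the other gene of this count, at 1.11 ± 0.16, adjusted p = 8.2e-06. Of 8 endoplasmic reticulum stress sensors, 0 rose in the embryonic and 2 in the postnatal response. Atf6 rose by 1.47 ± 0.15, adjusted p = 4.9e-08. Creb3l1, a related membrane-bound factor, went from a mean of 239.9, with 3 of 5 control arrays above background, to 3697 (adjusted p = 4.0e-11).

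Among 20 other folding and degradation genes of the endoplasmic reticulum, 2 rose and 1 fell in each response, near the shares of all genes. Ero1a, the oxidase that drives disulfide formation and a known target of hypoxia signalling, rose by 4.03 ± 0.11, adjusted p = 1.3e-17, in embryonic and 1.48 ± 0.11, adjusted p = 1.9e-10, in postnatal cells. Sec11c, a subunit of the signal peptidase, fell in embryonic cells (-1.17 ± 0.11, adjusted p = 1.1e-08), and Dnajc3, an inhibitor of the kinase PERK, fell in postnatal cells (-1.11 ± 0.10, adjusted p = 3.5e-09). Of 8 cytosolic heat shock genes 3 rose in each response, Hspa1a, Hspa1b and Hspb1. Hspa1a and Hspa1b are near-identical copies whose signals may not be separable, and Hspa1b rose by 2.52 ± 0.25, adjusted p = 2.8e-08, and 1.71 ± 0.25, adjusted p = 5.5e-06. Hspb1 rose by 2.16 ± 0.27, adjusted p = 9.6e-07, and 1.64 ± 0.27, adjusted p = 2.9e-05. Among 7 mitochondrial chaperones and proteases, Lonp1, a matrix protease, was the 1 gene that rose, by 1.27 ± 0.066, adjusted p = 9.1e-13, and 1.65 ± 0.066, adjusted p = 1.4e-14.

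The postnatal control arrays differed among themselves in this programme. Arrays 4 and 5, which were low in mitosis genes, both lay below arrays 1 to 3 for 16 of the 25 ATF4 and amino acid genes, 64% against 21.4% of all genes, and both lay above them for 1, Ddit3. For the endoplasmic reticulum genes the counts were 0 below and 6 of 10 above (Hspa5, Xbp1, Pdia4, Sdf2l1, Creld2 and Calr), 60% against 21.3% of all genes. These are descriptions of 5 arrays without a test. Array 2 was the highest of the 5 for 19 of the 25 genes, 76% against 20.6% of all genes. No call of any of the 35 genes in the embryonic or postnatal response was lost without arrays 4 and 5, or without any single array.

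**Figure D5:**
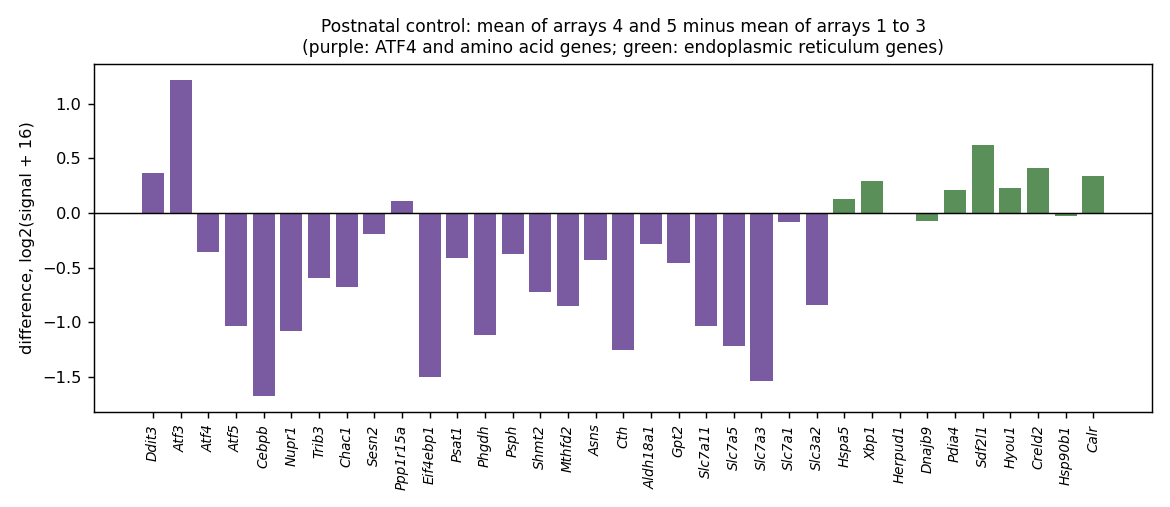
Difference between the mean log2(signal + 16) of postnatal control arrays 4 and 5 and that of arrays 1 to 3, for each of the 35 genes in order of role, purple for ATF4 and amino acid genes and green for endoplasmic reticulum genes. Most purple bars point down, to -1.68 for Cebpb, with Atf3 (1.22) and Ddit3 (0.37) as the longest purple bars that point up. Most green bars point up, to 0.62 for Sdf2l1. Atf3 was dim here, above background on 3 of 5 arrays, and array 2 (358) read above arrays 4 (351) and 5 (325).

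Other features of the cells moved in the same comparisons, and their part in these results was not tested. In the postnatal response 11 of 14 mitosis genes fell, while in the embryonic response 0 of 14 were called. The mean levels of the 14 were 13.86, 13.79, 13.84, 10.98 and 10.86 on postnatal control arrays 1 to 5. On transformed arrays they were 11.24 to 11.42, below control arrays 1 to 3 and above control arrays 4 and 5. All 5 markers of oligodendrocyte progenitors fell in the embryonic response, with summed signals of 32715 to 40207 on control and 1955 to 3378 on transduced arrays, as did all 5 markers of neurons (54949 to 59432 and 20156 to 22524). In the postnatal response 1 of 5 markers of oligodendrocyte progenitors fell, and 2 of 5 neuron markers rose and 2 fell. Of 5 astrocyte markers 3 fell in each response, with summed signals of 20501 to 24962 and 7654 to 8377 in embryonic and 13075 to 55389.7 and 13716 to 16696 in postnatal cells. Of 4 oligodendrocyte markers 2 fell in the postnatal response. In such samples fewer cells of a type and less RNA per cell cannot be told apart. Of the 5 markers each of microglia, endothelium and fibroblasts or pericytes, at most 4 were above background on any array. The summed microglial signal was 788 to 1148, 1045 to 2084, 803 to 1074 and 772 to 949 in the 4 groups.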

How the data were processed

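Total RNA of 20 samples in 4 groups of 5 was measured on single-colour Affymetrix arrays. The authors deposited linear intensities, 1 for each of 45101 probe sets per array. Their software and normalization were not given in the sources used here. Trimmed at both ends, each array averaged 2500.01 to 2500.02, so intensities were used as deposited. Each of 18193 genes was represented by the brightest (by mean log2 value) of its probe sets with 1 symbol, out of 34945 such probe sets in GEO's platform annotation. Control probe sets numbered 64 and were left out. On the log2(signal + 16) scale, computed here from the deposited intensities, 4 group means were fitted with limma 3.58.1 (lmFit, eBayes with trend) in R 4.3.3, two-sided. Files were read with data.table (1.17.8). The model was tested on simulated data first. Summaries used Python 3.11.15 with pandas 2.3.3, SciPy 1.17.1 and matplotlib 3.10.9. Array number limits the precision. Identical arrays were not found (0 pairs).

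The members and lists were chosen with earlier results of these data known. Named genes: values per array for up to 3 called genes per role with the smallest adjusted p in each response, for Ddit3, and for genes whose probe sets disagreed; up to 3 genes per pathway list and response with the smallest adjusted p. Alternatives were other offsets (1 and 64), quantile normalization, centring on the 75th percentile, the mean of probe sets, a filter on dim genes (above background on at least 5 arrays), no fold threshold, a replicate block, and leaving out arrays. Promoter sequences are RefSeq's, assembly GRCm38.p6.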

Additional observations from a re-analysis of the deposited data

Results flagged for a closer look

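In 9 of 140 sets of a gene and a group, 1 array stood apart from the other 4 by Dixon's criterion at 95%, which chance alone meets in about 1 of 20 sets. Embryonic transduced array 5 was the low one in 3 of them. Nupr1 read 1505 on embryonic transduced array 5, against 2509.5 to 2984 on the other arrays of the group. Psat1 read 24897 on embryonic transduced array 5, against 27312 to 28203 on the other arrays of the group. Aldh18a1 read 28874 on postnatal transformed array 2, against 30081 to 30413 on the other arrays of the group. Slc3a2 read 17569.6 on embryonic transduced array 5, against 21226 to 22393 on the other arrays of the group. Slc3a2 read 65320.1 on postnatal transformed array 3, against 58060.1 to 59439 on the other arrays of the group. Pdia4 read 3512 on postnatal transformed array 5, against 3933 to 4044 on the other arrays of the group. Sdf2l1 read 4747 on embryonic control array 3, against 5387 to 5550.2 on the other arrays of the group. Hyou1 read 6579 on embryonic control array 3, against 8237 to 8498 on the other arrays of the group. Calr read 21435 on embryonic transduced array 2, against 25259 to 26566 on the other arrays of the group.

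The postnatal change was more positive than the embryonic one for 13 genes, by the interaction term of the limma fit. Among them Gpt2 fell in the embryonic response and was not called in the postnatal one. The log2 differences were 2.08 for Ddit3, 1.63 for Atf4, 2.69 for Atf5, 1.31 for Phgdh, 2.10 for Psph, 1.52 for Shmt2, 1.51 for Mthfd2, 4.42 for Cth, 1.62 for Gpt2, 2.68 for Slc7a11, 2.51 for Slc7a5, 2.40 for Slc7a3 and 1.04 for Slc3a2. For Ddit3 this rests on the brighter probe set, since the dimmer one gave -0.78 ± 0.47.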

How the results depend on the processing

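No call of a member gene turned direction under the alternatives run. The dimmer probe set of Ddit3 gave -0.78 ± 0.47 for the difference of responses, which was not called. Counts of calls moved by over 1.5 times under 1 alternative, the adjusted p without a fold threshold. The ATF4 and amino acid genes then counted 14 higher and 2 lower in the embryonic response (9 and 1 with it), and 12 higher with age in controls (6 with it). The endoplasmic reticulum genes counted 2 higher and 3 lower in the embryonic response, 2 and 5 in the postnatal response, 2 and 1 in the difference of responses, 6 and 2 with age in controls, and 5 and 3 with age in modified cells, where 0, 0, 1, 0, 0, 0, 0, 0, 1 and 0 were called with it. Leaving out each array in turn gave 9 to 10 ATF4 and amino acid genes higher in the embryonic response, 20 to 22 in the postnatal response, 12 to 17 in the difference of responses and 19 to 20 with age in modified cells.

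The values showed no pairing by replicate number. Same-numbered samples of an age correlated in their deviations with r between -0.052 and 0.057, and 2 of 10 samples correlated best with their own number. Whether the numbers pair samples by design is not said in the labels. With the replicate number as a block the ATF4 and amino acid genes kept their counts, 9 higher and 1 lower in the embryonic and 20 higher in the postnatal response, with 13 larger in the difference of responses. The age comparisons could not be fitted with it.

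Some single calls ended with the mean of all probe sets. These were Shmt2 in the postnatal response (0.93), and Ddit3 (0.65) and Shmt2 (0.97) in the difference of responses. With age in modified cells they were Psat1 (0.79), Atf4 (0.91) and Shmt2 (0.93). For Atf4 the mean takes in a probe set that was below background on every array. Psat1 lay at the threshold, at 1.001, on its brighter probe set. Slc3a2 was lost from the difference of responses without embryonic transduced array 5 (0.98), postnatal control array 4 (0.91) or 5 (0.92). Quantile normalization and 75th percentile centring moved the median of all genes by 0.11 and 0.11 in the difference of responses. With age in modified cells the shifts were 0.14 and 0.066. In the embryonic response they were -0.098 and -0.094, and in the postnatal response 0.011 and 0.017. Among genes not called, signs near 0 turned under one of these scalings for Atf5, Psph, Hspa5 and Hyou1 in the embryonic response and for none in the postnatal response. Dim genes, such as Nupr1 and Trib3 in embryonic control, are limited by signal over background: with offsets of 64 and 1 the embryonic change of Nupr1 was 4.17 and 5.31.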
